A study of Mus musculus with 12 samples.

Results

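The SIN3-HDAC complex was followed through 10 of its subunit genes, which were taken by symbol from a list of known subunits: Arid4b, Arid4a, Sin3a, Sin3b, Hdac1, Hdac2, Sap30, Suds3, Brms1 and Ing2. All 10 were found among the 19680 genes listed, and all 10 passed the filter on low counts that left 11635 genes for testing. The cells were CJ9, a line of mouse embryonic stem cells, either wild type (WT) or labelled arid4b∆, where ∆ is the usual sign for a deletion. Cells of each genotype had been directed for 5 days to endoderm or to mesoderm, and total RNA was sequenced in 4 groups of 3 libraries: WT endoderm, arid4b∆ endoderm, WT mesoderm and arid4b∆ mesoderm, and no other agent or allele is named. How the mutant was made, the number of clones and whether a group's libraries stem from different cultures are not in the labels. P-values therefore rest on library-to-library spread that could be technical.

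SIN3 proteins are scaffolds without DNA-binding activity of their own that hold the histone deacetylases HDAC1 and HDAC2 and are brought to genes by transcription factors. Around this core sit small subunits that bridge and stabilise the enzyme module (SAP30, SDS3 encoded by Suds3, BRMS1), a subunit that reads methylated histone tails (ING2), and the related retinoblastoma-binding proteins ARID4A and ARID4B. In embryonic stem cells the complex is known for deacetylating histones at promoters and for a part in pluripotency and its exit, and Hdac1 and Hdac2 serve other corepressor complexes as well.

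The libraries held 10352411 to 35664057 counts, of which the ribosomal RNA precursor Rn45s took 79.6% to 82.4% and was set aside. That left 1949299 to 6678893 counts in each library, in which 3 counts corresponded to 0.449 to 1.54 CPM. The genes Mir6236 and Lars2 together took 49.7% to 69.5% of these remaining counts and stayed in the library sizes. Levels are given in CPM, the usual unit of counts relative to library size, with library sizes scaled by the TMM method for all values that follow. The 10 subunits held between 431 counts (Brms1) and 4428 counts (Hdac1) over all 12 libraries. As a check of the labelled lineages, 8 of 9 tested definitive endoderm genes were higher in WT endoderm than in WT mesoderm. The mesoderm label had less support, since of 6 tested mesoderm genes 2 were lower and 1 higher in WT endoderm, and of 12 primitive streak genes 4 were lower and 5 higher. In arid4b∆ libraries all 9 were lower than in WT in endoderm, 12 of 12 primitive streak genes were lower in endoderm and 9 of 12 in mesoderm, and 15 and 14 of 15 interferon-stimulated genes were higher in endoderm and mesoderm (edgeR, adjusted p under 0.05). Of the mesoderm genes 5 of 6 were lower in each lineage, and of 7 neural genes 2 and 5 were higher. Of 14 pluripotency genes 5 were higher and 2 lower in endoderm and 4 higher and 3 lower in mesoderm. Among all tested genes 9.84% were called between the lineages in WT. Between the genotypes 5.78% were called higher and 6.92% lower in endoderm, and 8.93% and 10.2% in mesoderm. The groups therefore differed in cell state as well as genotype, and in bulk RNA fewer cells of a type and less RNA per cell cannot be told apart.

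Promoter windows of the 250 bases before the start were matched for 7 of the 10 genes (8 windows, since Sin3a has 2) in the RefSeq table of GRCm38.p6. Those of Sap30 and Sin3b are shown, since all the other matched windows touch an annotated transcript. Both genes lie on chromosome 8 and were higher in arid4b∆ libraries. Capitals mark matches, on either strand, to the GC box GGGCGG and, in Sin3b, also to the TATA box letters TATAAA. The Sap30 window is chr8:57487861-57488110, on the minus strand, and the Sin3b window is chr8:72723020-72723269, on the plus strand.
Sap30: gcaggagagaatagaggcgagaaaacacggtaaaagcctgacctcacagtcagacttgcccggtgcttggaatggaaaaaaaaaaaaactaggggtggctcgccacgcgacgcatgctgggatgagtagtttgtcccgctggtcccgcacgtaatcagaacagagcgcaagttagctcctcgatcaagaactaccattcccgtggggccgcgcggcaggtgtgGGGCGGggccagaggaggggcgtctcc
Sin3b: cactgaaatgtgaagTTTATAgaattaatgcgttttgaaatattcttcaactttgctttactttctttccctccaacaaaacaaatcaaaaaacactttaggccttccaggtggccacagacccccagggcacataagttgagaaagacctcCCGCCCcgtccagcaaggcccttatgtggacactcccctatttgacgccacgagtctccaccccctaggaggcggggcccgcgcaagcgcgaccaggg
Sap30 and Sin3b held 18 and 10 CpG pairs in these 250 bases, against a median of 6 over the 32851 windows of the table. The other matched subunit windows were above that median too: Hdac2 27, Suds3 26, Ing2 24, Sin3a 12 and 19, and Arid4b 8. Each of them except that of Arid4b also held a GC box, so neither trait was particular to Sap30 and Sin3b. The GC box occurred in 32.7% of all windows and the TATA letters in 12.4%. Neither window held the E-box CACGTG (6.02% of all windows), the ETS letters CCGGAAG (6.91%) or the CCAAT letters (33.8%). These are matches of letters only.

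The subunits were not equally abundant. Per kilobase of the main annotated transcript, and as the mean over all 12 libraries, the deacetylases led with 43.9 CPM per kb for Hdac1 and 37.8 for Hdac2. Suds3 followed with 23.1, then the scaffolds Sin3a with 16.6 and Sin3b with 14.7, Sap30 with 10.9, Arid4b with 7.41, Brms1 with 6.20, Arid4a with 3.56 and Ing2 with 3.47 CPM per kb. Neighbours in this order that did not stand apart beyond their spread included Hdac1 and Hdac2 in WT endoderm, at 43.1 ± 1.11 and 43.1 ± 0.94 CPM per kb, and Sin3a and Sin3b in the same group, at 15.5 ± 0.49 and 15.1 ± 1.09 (SD, n = 3). Arid4a and Ing2, at 3.21 ± 0.56 and 3.43 ± 1.07 CPM per kb there, could not be told apart either. The lead of Hdac1 and Hdac2 also held per kilobase of coding sequence and of all exons joined. The order below them did not: with all exons joined Arid4b was below Arid4a (2.56 against 3.17 CPM per kb). Suds3 fell to 3.46 CPM per kb there, below Sin3a (15.7), Sap30 (10.9), Sin3b (8.25) and Brms1 (4.92). Levels between genes depend on the gene models used for counting, which the sources used here do not name.

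Arid4b (chr13:14063609-14199603, plus strand), the gene named in the labels, was counted at much the same level in all 4 groups. It stood at 41.6, 44.6 and 36.7 CPM in WT endoderm and at 42.7, 51.0 and 44.9 CPM in arid4b∆ endoderm. In mesoderm it stood at 36.9, 46.4 and 42.8 CPM in WT and at 44.7, 41.5 and 47.5 CPM in arid4b∆. The groups overlapped in both lineages, and no library lacked reads on Arid4b, which had 90 to 301 counts each. The log2 fold change was 0.17 ± 0.11 (SE) in endoderm (edgeR, adjusted p = 0.365) and 0.10 ± 0.12 in mesoderm (adjusted p = 0.601), with a 95% interval of -0.03 to 0.31 for the mean of both lineages. Counts of the whole gene do not show which exons the reads came from, so they do not check the deletion, and genotypes are given as labelled. Of the 3 tested genes nearest to Arid4b on each side, Hecw1, a ubiquitin ligase gene 26835 bases beyond its end, was higher in arid4b∆ endoderm, at 6.68, 8.47 and 5.87 CPM against 1.16, 2.74 and 2.54 in WT (log2 fold change 1.65 ± 0.44, adjusted p = 0.0147). The call of Hecw1 was lost without the first WT endoderm library (adjusted p = 0.0713) and without the second arid4b∆ endoderm library (0.0885). In mesoderm Hecw1 had 5 counts or fewer in 5 of 6 libraries, and its fold change of 1.75 ± 0.79 did not pass (adjusted p = 0.13). Over both lineages the fold change of Hecw1 was 1.70 ± 0.45 (edgeR, adjusted p = 0.00671), a call that held in 19 of 20 alternative settings (highest adjusted p 0.0767). The other neighbours (B3galnt2, Tbce, Ggps1, Mrpl32 and Psma2) did not pass in either lineage, though B3galnt2 was lower over both (-0.27 ± 0.10, adjusted p = 0.039), a call that held in 9 of 20 alternative settings (highest adjusted p 0.167, with DESeq2).

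Within each lineage none of the 10 subunits passed the genotype test. In endoderm 0 of 10 were called by edgeR, where 12.7% of all tested genes were, and 1 of 10 had an unadjusted p under 0.05, against 25.2%. In mesoderm 0 of 10 were called against 19.1% of tested genes, and 3 of 10 had an unadjusted p under 0.05, against 31.2%. DESeq2 also called none in either lineage. The log2 fold changes ran from -0.12 to 0.46 in endoderm (median 0.13) and from -0.15 to 0.51 in mesoderm (median 0.18), while the medians of all tested genes were -0.00369 and 0.00709. The genotype groups did not overlap for 2 of 10 subunits in endoderm (30.2% of tested genes) and 4 of 10 in mesoderm (32.8%). Over both lineages, 3 of 10 were called, all higher in arid4b∆, where 28.2% of tested genes were called and 13.9% were called higher. These 3 were Sap30, Arid4a and Sin3b.

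**Figure D1:**
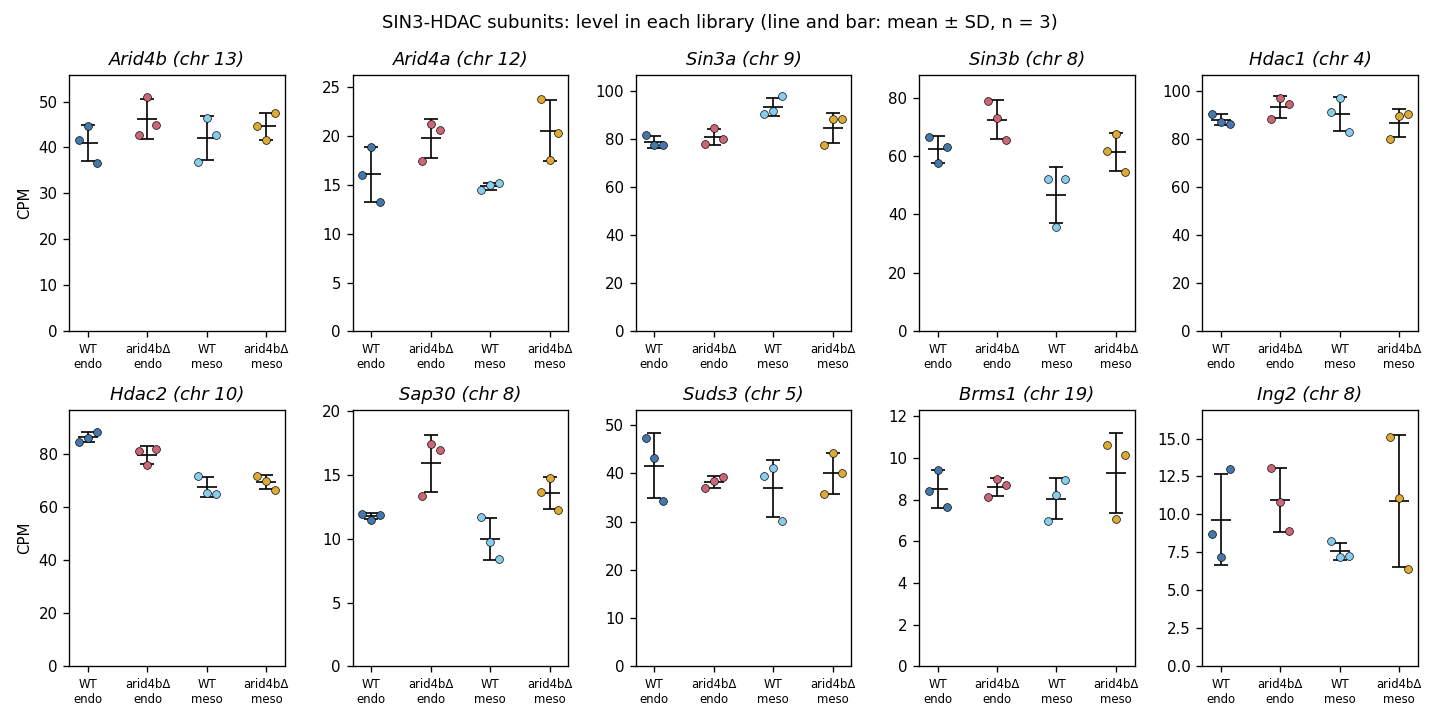
Level of each of the 10 subunit genes in CPM (vertical axis, from 0) in the 12 libraries, by group. Points are libraries, and the line and bar are the mean and SD of 3. Arid4b has the same level in all groups within its spread, while the Sap30 points of both arid4b∆ groups lie above those of WT in the same lineage.

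Sap30 (chr8:57482702-57487860), the small subunit that links SIN3 to the deacetylase module, had the clearest rise. It stood at 11.9, 11.5 and 11.9 CPM in WT endoderm and at 13.4, 17.4 and 17.0 CPM in arid4b∆ endoderm. In mesoderm the values were 11.7, 9.79 and 8.42 CPM in WT and 13.7, 14.8 and 12.3 CPM in arid4b∆. In each lineage every arid4b∆ library was above every WT library, which was so for 14.7% of tested genes in endoderm and 15.7% in mesoderm. The log2 fold change was 0.46 ± 0.17 in endoderm (edgeR, adjusted p = 0.0728), 0.46 ± 0.19 in mesoderm (adjusted p = 0.0903) and 0.46 ± 0.12 over both (adjusted p = 0.00794), a 1.37-fold rise. It was counted with 19 to 103 reads per library. Within each lineage Sap30 was called in 1 of 21 alternative settings (lowest adjusted p 0.0426 in endoderm and 0.0377 in mesoderm).

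Sin3b (chr8:72723270-72758203), the smaller of the scaffold paralogs, rose over both lineages by 0.28 ± 0.09 (adjusted p = 0.0163, edgeR), or 1.22-fold. Endoderm libraries held 66.3, 57.4 and 63.0 CPM in WT and 78.7, 73.1 and 65.5 CPM in arid4b∆, with the groups overlapping by 1 library. Mesoderm libraries held 52.1, 35.5 and 52.0 CPM in WT and 61.8, 67.7 and 54.7 CPM in arid4b∆, without overlap. The fold changes of the single lineages were 0.22 ± 0.12 (adjusted p = 0.249) and 0.35 ± 0.13 (adjusted p = 0.0581). In mesoderm Sin3b was called with no filter on low counts (adjusted p = 0.0283) and without WT library 1 or arid4b∆ library 3 (0.0401 and 0.0408). Without the second WT endoderm library, the value over both lineages was 0.26 with an adjusted p of 0.0524.

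Its paralog Sin3a (chr9:57071991-57128368), the scaffold needed for early embryonic growth, did not pass in either lineage. It stood at 81.8, 77.5 and 77.4 CPM in WT endoderm and 77.9, 84.7 and 80.1 CPM in arid4b∆ endoderm. In mesoderm the WT libraries, at 90.5, 91.7 and 97.8 CPM, were all above the arid4b∆ libraries, at 77.4, 88.3 and 88.2 CPM. The fold change there was -0.15 ± 0.09 (edgeR, adjusted p = 0.289). Over both lineages it was -0.05, with a 95% interval of -0.18 to 0.08.

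Arid4a (chr12:71015081-71099351), the paralog of Arid4b, rose over both lineages by 0.38 ± 0.11 (adjusted p = 0.0158, edgeR), or 1.30-fold. In endoderm it stood at 16.0, 18.9 and 13.3 CPM in WT and at 17.4, 21.2 and 20.6 CPM in arid4b∆, so that the highest WT library lay among the arid4b∆ libraries. In mesoderm the WT libraries lay close together at 14.5, 14.9 and 15.1 CPM, below all arid4b∆ libraries at 23.8, 17.5 and 20.3 CPM. The single-lineage fold changes were 0.29 ± 0.16 (adjusted p = 0.261) and 0.47 ± 0.17 (adjusted p = 0.0523). The mesoderm difference of Arid4a was called in 5 of 21 alternative settings (lowest adjusted p 0.037). The call over both lineages was lost with DESeq2 (adjusted p = 0.0583) and without the first arid4b∆ mesoderm library (0.32, adjusted p = 0.0509). A long noncoding gene, 3110056K07Rik, overlaps Arid4a by 743 bases and held 144 counts in all, and reads of both genes cannot be told apart if counting ignored strand, which the sources used here do not state.

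Of the catalytic subunits, Hdac2 differed between the lineages in WT, and neither passed the genotype test. Hdac1 (chr4:129516104-129542646) lay between 80.0 and 97.0 CPM in all 12 libraries, with a genotype fold change over both lineages of 0.02 and a 95% interval of -0.11 to 0.15. Hdac2 (chr10:36974297-37001889) stood at 84.7, 86.3 and 88.4 CPM in WT endoderm against 71.8, 65.4 and 65.1 CPM in WT mesoderm, without overlap. In endoderm all arid4b∆ libraries were below all WT libraries, by -0.12 ± 0.08 (edgeR, adjusted p = 0.421). Hdac2 was the only one of the 10 subunits called between the lineages in WT (0.36 ± 0.09, 1.28-fold higher in endoderm, edgeR adjusted p = 0.00989), where 9.84% of tested genes were called and 4.41% were called higher in endoderm. Without the third WT mesoderm library the adjusted p of Hdac2 was 0.0642. In arid4b∆ the endoderm libraries, at 81.1, 76.0 and 82.1 CPM, were again above the mesoderm libraries, at 71.9, 69.8 and 66.7 CPM, but the difference of 0.20 ± 0.09 did not pass (adjusted p = 0.336). In that comparison 0 of 10 subunits and 1.86% of tested genes were called. DESeq2 also called none there, and 1 of 10 had an unadjusted p under 0.05, against 12.7%. The groups did not overlap for 3 of 10 subunits between the lineages in WT (24.6% of tested genes) and for 1 of 10 in arid4b∆ (18.2%). The test of whether the lineage difference depended on genotype gave -0.16 ± 0.12 for Hdac2 (adjusted p = 0.742). It called none of the 10 subunits by edgeR or DESeq2 and none at an unadjusted p under 0.05, where 1.4% of tested genes were called and 10.4% had such a p. Sin3b was likewise higher in WT endoderm than in WT mesoderm in every library (0.36 ± 0.12) and Sin3a lower (-0.25 ± 0.09), with adjusted p of 0.0706 and 0.0902. Sin3b was called there with no filter on low counts (adjusted p = 0.0195) and without the first WT mesoderm library (0.0465). The other 7 subunits differed between the lineages in WT by -0.01 (Arid4b), 0.13 (Arid4a), -0.03 (Hdac1), 0.25 (Sap30), 0.21 (Suds3), 0.09 (Brms1) and 0.31 (Ing2), with adjusted p from 0.396 to 0.981. In arid4b∆ the lineage differences were 0.06 for Arid4b, -0.05 for Arid4a, -0.06 for Sin3a, 0.24 for Sin3b, 0.11 for Hdac1, 0.25 for Sap30, -0.06 for Suds3, -0.11 for Brms1 and -0.0022 for Ing2. The interaction was 0.07 for Arid4b, -0.18 for Arid4a, 0.19 for Sin3a, -0.13 for Sin3b, 0.14 for Hdac1, 0.0012 for Sap30, -0.28 for Suds3, -0.19 for Brms1 and -0.31 for Ing2, and its standard errors ran from 0.12 to 0.38.

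The remaining small subunits gave no call in the main edgeR fit. Suds3 (chr5:117091678-117115993), which keeps the deacetylase module on the scaffold, lay between 30.1 and 47.4 CPM with all groups overlapping, and its genotype fold change over both lineages had a 95% interval of -0.18 to 0.21. Brms1 (chr19:5041363-5049912), a relative of SDS3 first described as a metastasis suppressor, lay between 6.98 and 10.6 CPM, with an interval of -0.20 to 0.41. Ing2 (chr8:47667178-47675159), the reader of methylated histone tails, varied most between libraries: 8.73, 7.20 and 12.995 CPM in WT endoderm, 13.1, 10.8 and 8.90 CPM in arid4b∆ endoderm, 8.23, 7.21 and 7.24 CPM in WT mesoderm and 15.1, 11.1 and 6.40 CPM in arid4b∆ mesoderm. Its groups overlapped in both lineages, and the fold change over both was 0.36 ± 0.19 (edgeR, adjusted p = 0.18). Without the third arid4b∆ mesoderm library, the lowest for Ing2, that value was 0.50 (adjusted p = 0.0385). The difference of Ing2 in mesoderm alone was called in 1 of 21 alternative settings (lowest adjusted p 0.0461). In mesoderm the 95% intervals reached 0.44 for Suds3, 0.65 for Brms1 and 1.10 for Ing2.

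**Figure D2:**
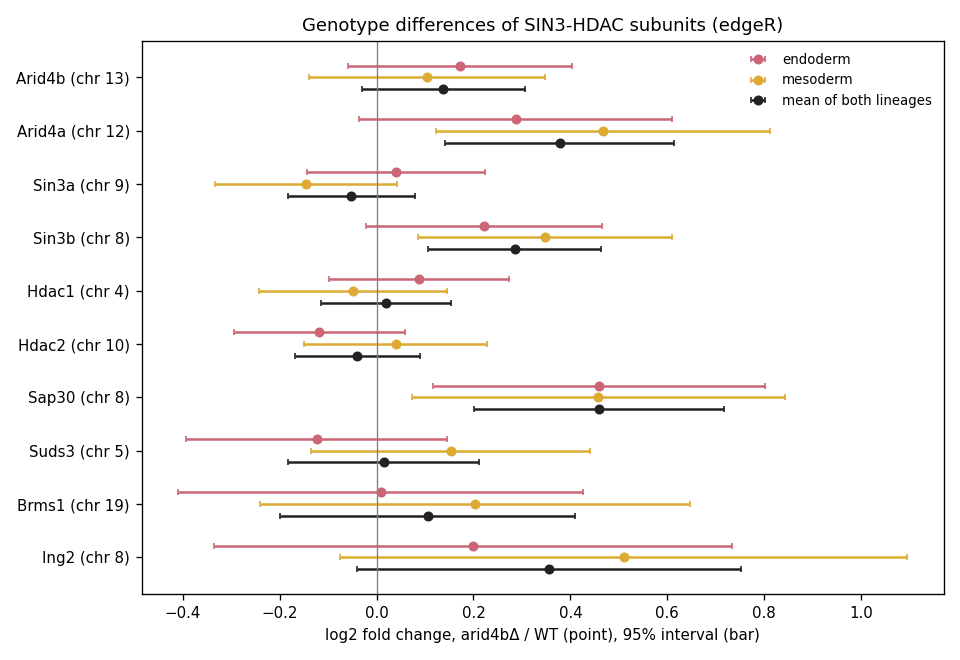
Log2 fold change of arid4b∆ against WT (horizontal axis) for each subunit in endoderm, in mesoderm and as the mean of both. Points are edgeR estimates and bars are 95% intervals. The black intervals of Sap30, Arid4a and Sin3b lie above 0, and the other 7 include it.

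Sap30, Sin3b and Ing2 all lie on chromosome 8, and so the other genes of that chromosome were examined, a step added after the values had been seen. The 648 tested genes of chromosome 8 had a median log2 fold change of 0.23 in endoderm, 0.27 in mesoderm and 0.24 over both lineages, and 38.0% of them were called higher over both. On the other 18 autosomes the medians over both lineages ran from -0.08 to 0.06, and 6.8% to 18.9% of genes were called higher. Chromosome 8 genes took 4.91% to 5.24% of the counts of tested genes other than Mir6236 and Lars2 in the 6 WT libraries. In the 6 arid4b∆ libraries they took 5.81% to 6.02%, without overlap. The excess ran along the chromosome: each of its 13 windows of 10 Mb had a median between 0.12 and 0.31, the thinnest with 8 genes. When each chromosome's genes were scaled among themselves, Sap30 had a fold change of 0.21 ± 0.12 over both lineages (edgeR, adjusted p = 0.221), Sin3b 0.04 ± 0.08 (adjusted p = 0.788) and Ing2 0.11 ± 0.19 (adjusted p = 0.724). Arid4a, on chromosome 12, kept its call at 0.39 ± 0.11 (adjusted p = 0.0136). Of the 10 subunits 1 was then called, against 27.1% of tested genes under the same scaling, and the cause of the higher counts along chromosome 8 was not tested.

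**Figure D3:**
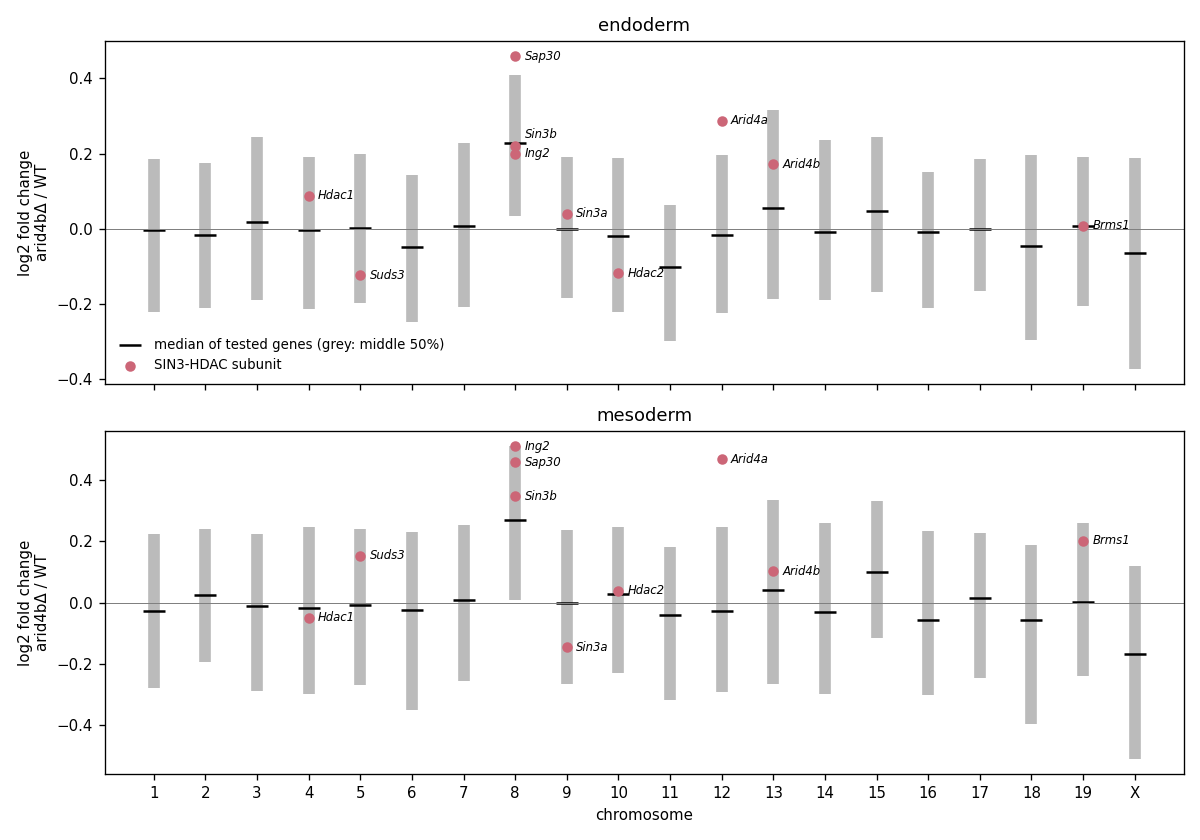
Log2 fold change of arid4b∆ against WT (vertical axis) in endoderm (top) and mesoderm (bottom) by chromosome. Black lines are medians of the tested genes, grey bars their middle 50%, and red points the 10 subunits. The chromosome 8 medians, 0.23 and 0.27, lie above those of every other chromosome, and Sin3b and Ing2 lie at or inside its grey bar in endoderm.

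The balance of paralogs within a library does not depend on scaling between libraries, and was compared for 6 pairs. The log2 ratio of Sin3a to Sin3b counts was 0.30, 0.43 and 0.30 in WT endoderm and -0.02, 0.21 and 0.29 in arid4b∆ endoderm, and it was 0.80, 1.36 and 0.91 in WT mesoderm and 0.33, 0.38 and 0.69 in arid4b∆ mesoderm. Every arid4b∆ library was therefore below every WT library of its lineage. The mean shift was -0.37 (two-sided exact permutation test within lineages, p = 0.005, the smallest that its 400 arrangements can give; adjusted over 6 pairs, 0.03), with Sin3b on chromosome 8 and Sin3a on chromosome 9. The ratio of Arid4a to Arid4b rose by 0.25 (exact permutation p = 0.015, adjusted 0.045), from -1.37, -1.24 and -1.46 to -1.29, -1.26 and -1.12 in endoderm and from -1.34, -1.62 and -1.49 to -0.91, -1.24 and -1.22 in mesoderm. Endoderm groups overlapped for this pair and mesoderm groups did not. Sap30 to Sap30l shifted by 0.71 (exact permutation p = 0.04, adjusted 0.08), with Sap30 on chromosome 8 and the groups overlapping in both lineages. In WT mesoderm this ratio was 1.02, -0.50 and 0.59, and Sap30l stood at 5.74, 13.9 and 5.55 CPM, so library 2 stood apart. Hdac1 to Hdac2, Brms1 to Brms1l and Ing1 to Ing2 shifted by 0.05, 0.17 and 0.07 (exact permutation p = 0.55, 0.39 and 0.79, adjusted 0.66, 0.585 and 0.79). With single libraries left out, the adjusted exact permutation p of each of these called pairs lay between 0.03 and 0.105. That of Sin3a to Sin3b passed 0.05 without WT endoderm library 1 or 3, WT mesoderm library 2 or arid4b∆ mesoderm library 1 or 2. That of Arid4a to Arid4b did so without these same libraries, and also without arid4b∆ endoderm library 3, WT mesoderm library 3 or arid4b∆ mesoderm library 3. These ratios come from the same counts as the tests above and are no separate evidence.

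**Figure D4:**
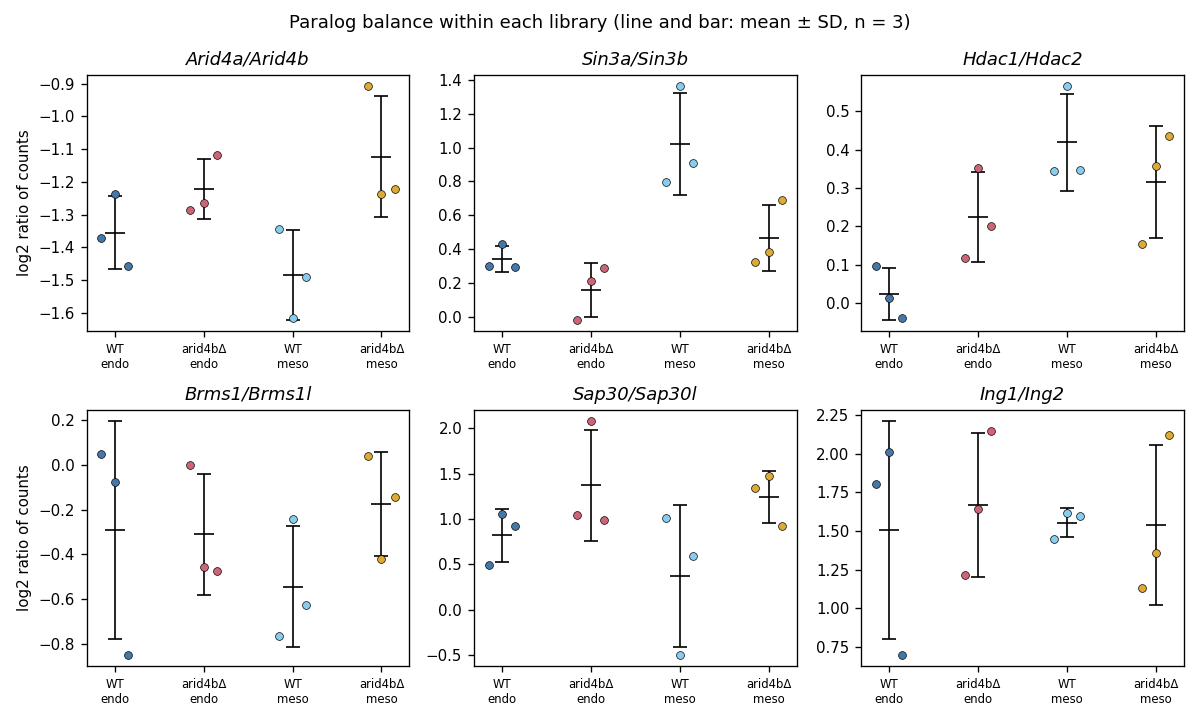
Log2 ratio of counts of 6 paralog pairs (vertical axis) in each library, by group. Points are libraries, and the line and bar are the mean and SD of 3. The ratio of Sin3a to Sin3b is lower in arid4b∆ than in WT within each lineage, and mesoderm WT has the highest values.

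Beyond the 10 subunits, 17 of 18 other genes of SIN3-associated proteins were tested. In endoderm 1 was called higher and 3 lower, in mesoderm 1 higher and 2 lower, and over both lineages 2 higher and 4 lower (35.3%, against 28.2% of all tested genes). Among all tested genes 5.78% were called higher and 6.92% lower in endoderm, 8.93% and 10.2% in mesoderm, and 13.9% and 14.3% over both. The most marked was Rbbp7, on chromosome X, which encodes a histone-binding subunit that SIN3 shares with the NuRD and Polycomb complexes. It stood at 154, 146 and 163 CPM in WT endoderm and 85.1, 68.9 and 84.7 CPM in arid4b∆ endoderm. In mesoderm it stood at 232, 277 and 238 CPM in WT and 84.7, 108 and 119 CPM in arid4b∆. The arid4b∆ libraries held well under the WT level in both lineages, with log2 fold changes of -0.96 ± 0.12 (1.95-fold lower, edgeR adjusted p = 5.24e-06) and -1.25 ± 0.12 (2.39-fold lower, adjusted p = 1.69e-07). Rbbp7 was called under each of 21 alternative settings in each lineage, with a fold change no closer to 0 than -0.85 in endoderm and -1.04 in mesoderm. Rbbp4, the paralog of Rbbp7, was singled out after its values were seen: it lay between 124 and 148 CPM in all libraries, with fold changes of 0.07 and -0.01 (adjusted p = 0.662 and 0.955). The log2 ratio of Rbbp4 to Rbbp7 counts accordingly ran from -0.32 to -0.17 in WT endoderm and 0.70 to 0.94 in arid4b∆ endoderm, and from -0.90 to -0.73 and 0.30 to 0.63 in mesoderm.

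Tet1, on chromosome 10, a DNA-demethylating enzyme found with SIN3A in embryonic stem cells, rose in both lineages. It stood at 126, 128 and 153 CPM in WT endoderm against 173, 221 and 225 CPM in arid4b∆ endoderm. In mesoderm it stood at 140, 121 and 146 CPM against 206, 186 and 240 CPM. The groups did not overlap, and the fold changes were 0.61 ± 0.12 (edgeR, adjusted p = 0.00123) and 0.63 ± 0.12 (adjusted p = 0.000774). Foxk1, a forkhead factor that brings SIN3 to DNA, fell by 0.45 in endoderm (adjusted p = 0.00857, or 0.0615 without the second WT endoderm library). Gatad1 fell by 0.36 there (adjusted p = 0.0231), a call lost with DESeq2 (adjusted p = 0.111) and without any one of 4 endoderm libraries, WT 1 and 2 and arid4b∆ 2 and 3 (0.068 to 0.138). Ogt, the enzyme that adds N-acetylglucosamine to proteins, fell by 0.35 in mesoderm (adjusted p = 0.0207), a call lost without WT mesoderm library 2 or 3 or arid4b∆ mesoderm library 2 or 3 (adjusted p 0.0567 to 0.11). Ing1, a chromosome 8 paralog of Ing2, rose by 0.39 over both lineages (adjusted p = 0.0058).

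**Figure D5:**
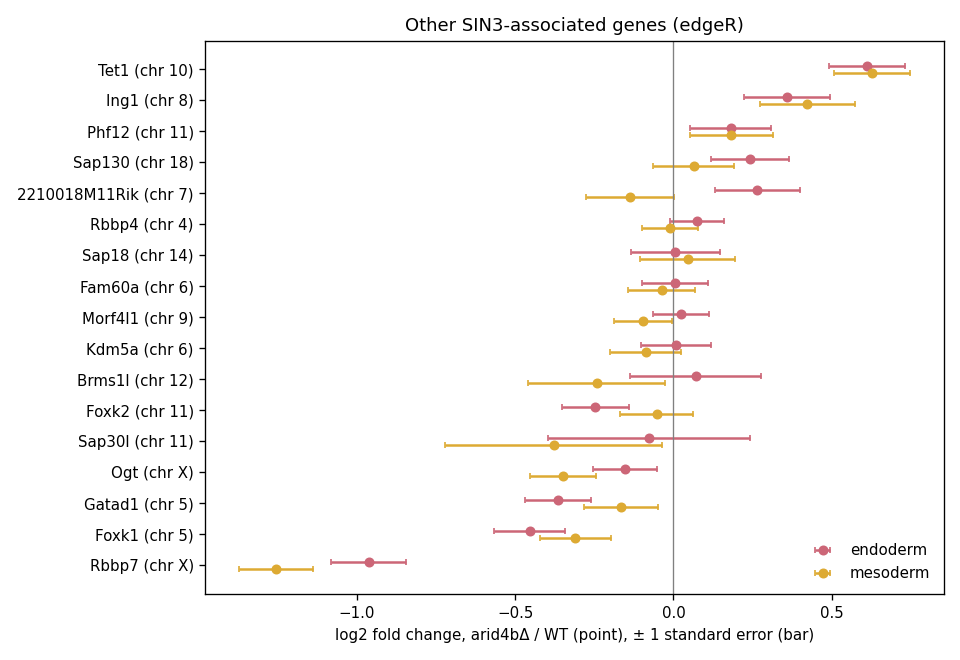
Log2 fold change of arid4b∆ against WT (horizontal axis) for 17 further SIN3-associated genes in endoderm and mesoderm. Points are edgeR estimates and bars 1 standard error, and 2210018M11Rik is the symbol of Emsy in the deposited table. Tet1 lies at the top near 0.6 in both lineages, and Rbbp7 at the bottom at -0.96 and -1.25.

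Of 22 tested transcription factors and partners known to recruit SIN3, 2 were called higher and 3 lower in each lineage and 17 were not called. That is 22.7%, against 12.7% of all tested genes in endoderm and 19.1% in mesoderm. Rest, the repressor of neuronal genes, rose by 0.38 ± 0.10 in endoderm and 0.42 ± 0.09 in mesoderm (edgeR, adjusted p = 0.00943 and 0.00303), and its endoderm value had an adjusted p of 0.0946 without the second WT endoderm library. E2f4, a repressive cell cycle factor on chromosome 8, rose by 0.45 ± 0.11 and 0.35 ± 0.11 (adjusted p = 0.00686 and 0.0275). Its calls were lost in endoderm without the second WT library (adjusted p = 0.0775), and in mesoderm with DESeq2 (0.061) and without WT library 3 or arid4b∆ library 1 or 3 (0.0723 to 0.142). Mxd4, a MAX partner that opposes MYC through SIN3, fell from 5.24, 5.15 and 5.05 to 1.40, 2.46 and 1.07 CPM in mesoderm (-1.65 ± 0.40, adjusted p = 0.00511), near the level of a few counts.

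The 2 deacetylases of SIN3 also sit in other corepressor complexes, which are given for comparison. Each of the next lists counts Hdac1 and Hdac2 again, and the NuRD list also Rbbp4 and Rbbp7. Among all tested genes 12.7% were called in endoderm and 19.1% in mesoderm. Of 14 NuRD genes tested, 1 was called lower in endoderm (7.14%), and 1 higher and 2 lower in mesoderm (21.4%). Chd3, a NuRD remodelling ATPase, fell by 0.68 ± 0.13 in mesoderm (edgeR, adjusted p = 0.000618). Of 12 CoREST genes, 1 was called higher in endoderm (8.33%), and 1 higher and 1 lower in mesoderm (16.7%). Gse1, a CoREST-associated gene on chromosome 8, rose from 47.6, 42.8 and 49.3 to 98.4, 96.6 and 89.3 CPM in mesoderm (1.01 ± 0.11, adjusted p = 8.38e-07). Of 5 MiDAC genes, Trerf1 alone was called, higher in endoderm (0.62 ± 0.13, adjusted p = 0.00185).

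Among 14 other histone deacetylases tested, 1 was called higher and 1 lower in each lineage. That is 14.3%, against 12.7% of all tested genes in endoderm and 19.1% in mesoderm. Hdac5, a class IIa deacetylase, stood at 37.2, 42.4 and 37.6 CPM in WT endoderm and 28.2, 24.4 and 20.2 CPM in arid4b∆ endoderm. In mesoderm it stood at 29.2, 30.9 and 32.5 CPM in WT and 20.1, 23.7 and 19.5 CPM in arid4b∆. The groups did not overlap, and Hdac5 fell by 0.71 ± 0.13 and 0.56 ± 0.14 (edgeR, adjusted p = 0.000528 and 0.00698). Sirt1, a deacetylase that depends on NAD, rose by 0.55 ± 0.10 and 0.41 ± 0.11 (adjusted p = 0.000868 and 0.00915). Without the second arid4b∆ mesoderm library, its mesoderm adjusted p was 0.0575, and that of Kat7, below, was 0.0666. Of 13 genes of histone acetyltransferases and their complexes, 1 was called higher in endoderm (7.69%). In mesoderm 1 was called higher (Brpf1, a complex subunit, 0.51 ± 0.13, adjusted p = 0.0066) and 1 lower (Kat7, -0.39 ± 0.10, adjusted p = 0.0095), or 15.4%.

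These listed chromatin genes were also sorted by chromosome. Of the 6 on chromosome 8 other than the subunits, 5 were called higher over both lineages (E2f4, Gatad2a, Gse1, Ing1 and Kat6a) and 0 lower. In endoderm alone 2 were called higher, and in mesoderm alone 3. Of the 7 on chromosome X, 4 were called lower over both (Ogt, Rbbp7, Tbl1x and Zmym3) and 0 higher, with 2 lower in endoderm and 4 in mesoderm. Among all tested genes 13.9% were called higher over both lineages and 14.3% lower, and the larger share along chromosome 8 is given above. These are few genes, from lists chosen with earlier results known. Over all 412 tested genes of chromosome X, the median fold change over both lineages was -0.11, and 25.7% were called lower. With each chromosome scaled among its own genes, the fold change of Rbbp7 was -0.89 in endoderm and -1.04 in mesoderm and that of Gse1 in mesoderm 0.74, all still called. E2f4, Gatad2a, Ing1, Kat6a, Ogt and Zmym3 lost their calls over both lineages.

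The genes whose profiles were most like that of Arid4b were not subunits of the complex. The root mean square difference of gene-centred log2 CPM over the 12 libraries was smallest to Mphosph8 (0.0702), Phf3 (0.0730), Luc7l2 (0.0800), N4bp2l2 (0.0808) and Cdk11b (0.0906), among 9238 genes with a mean above 5 CPM and a median difference of 0.264. The nearest of the SIN3 genes was Brms1 at 0.126, in position 125, and Hdac1 was next at 0.127. Rbbp7 was among the least like, at 0.704. Because Arid4b varied little, the measure favours any gene that varies little and is well counted, and it cannot show shared regulation. This likeness is a description over libraries that share groups and scaling.

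Summed over the 10 subunits, the libraries held 432 to 457 CPM in WT endoderm, 457 to 479 in arid4b∆ endoderm, 410 to 424 in WT mesoderm and 435 to 452 in arid4b∆ mesoderm. Markers of fibroblasts and feeder cells were uneven at the same time: their summed level was 261 to 363 CPM in WT endoderm, 367 to 875 in arid4b∆ endoderm, 570 to 1052 in WT mesoderm and 443 to 982 in arid4b∆ mesoderm. Of 15 such genes 12 were tested, with 5 called higher in endoderm, 2 higher and 1 lower in mesoderm and 9 higher over both lineages. Among all tested genes 5.78% were called higher in endoderm, 8.93% higher and 10.2% lower in mesoderm and 13.9% higher over both. Lum and Fap were at 0 in all WT endoderm libraries. Fn1 made up most of the mean sum in each group, with means of 565 CPM in WT mesoderm and 379 CPM in arid4b∆ mesoderm, and Vim was also lower there on average. The other 13 genes had higher means in arid4b∆ than in WT in both lineages, such as Col1a1 at 18.8 and 45.2 CPM in mesoderm. The interferon-stimulated list summed to 28.1 to 30.2 CPM in WT endoderm and 248 to 302 in arid4b∆ endoderm, and to 54.4 to 92.1 and 251 to 301 in mesoderm. The part of these differences in the values of the subunits was not tested.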

How the data were processed

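Libraries were prepared from rRNA-depleted total RNA with a strand-marking kit and read on a HiSeq2000, per the labels' protocols. The authors deposited whole-number read counts per gene for 12 libraries. The submitters' processing notes name STAR, DESeq2 and mm10. Which program counted the reads, whether it used strand and with which annotation is not given here. Groups and library numbers came from the titles. Rn45s was left out, as were 26 genes with a date in the first WT endoderm library's cell.

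Counts were tested in R 4.3.3 with edgeR 4.0.16: TMM scaling, filterByExpr with a minimum count of 10, and 1 quasi-likelihood fit of 4 group means over 12 libraries. P-values were adjusted by Benjamini-Hochberg over 11635 genes at 0.05, and a gene past that threshold is called. Each SE is the size of the log2 fold change divided by the root of its F statistic. The fit was tested on simulated data. Paralog ratios, with 0.5 added to counts, used two-sided exact permutation of genotype within lineage. Positions and promoters are from RefSeq (GRCm38.p6) and lengths from GENCODE.

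Members and lists were chosen with earlier results of these data known. All 10 members are named in each comparison, and up to 4 called genes of each other list, by smallest adjusted p. The result of 1 list is not reported here. Alternatives were RLE scaling, DESeq2 1.42.0, limma-voom (limma 3.58.1), no filter, Mir6236 and Lars2 (49.7% to 69.5% of counts used) left out, Rn45s kept, a replicate block, only the groups compared, each library left out, for ratios the median and a pseudocount of 1, and, added after seeing the data, scaling within each chromosome. The labels name no molecular identifiers, so floors cover counting error only.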

Additional observations from a re-analysis of the deposited data

Results flagged for a closer look

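The genotype difference of Gse1, a CoREST-associated gene on chromosome 8, differed between the lineages. The interaction of genotype and lineage was -0.69 on the log2 scale (edgeR, adjusted p = 0.0141), with the arid4b∆ against WT difference at 0.32 in endoderm and 1.01 in mesoderm. In WT, Gse1 stood at 75.8 ± 7.29 CPM in endoderm and 46.6 ± 3.41 CPM in mesoderm, and in arid4b∆ at 93.6 ± 9.81 and 94.8 ± 4.82 CPM (SD, n = 3). Its endoderm difference was not called with DESeq2 (adjusted p = 0.0976), without any one of WT endoderm libraries 1 and 2 and arid4b∆ endoderm libraries 2 and 3, or with each chromosome scaled among its own genes (0.09, adjusted p = 0.637). The cause was not tested.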

How the results depend on the processing

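The call of Sap30 over both lineages held in 19 of 20 alternative settings, that of Sin3b in 18 and that of Arid4a in 18, and the exceptions are named in the report. No called fold change of a subunit changed sign in any setting, and no scaling of whole libraries moved the median of all genes by over 0.1. Subunits called in mesoderm went from 0 to 1 with no filter on low counts (Sin3b, adjusted p = 0.0283), with the replicate block (Sin3b, 0.0397) and with scaling within chromosomes (Arid4a, 0.048), and to between 0 and 2 without single libraries (2 without WT mesoderm library 1 or arid4b∆ mesoderm library 3). They ranged from 0 to 1 in endoderm without single libraries (1 without the first arid4b∆ endoderm library, Sap30 0.55, adjusted p = 0.0426). Subunits called over both lineages fell from 3 to 1 with scaling within chromosomes, which takes out any shift shared by a chromosome whatever its cause. Subunits called between lineages in WT went from 1 to 2 with no filter and with the replicate block (Sin3b, adjusted p = 0.0195 and 0.0441), and to between 0 and 2 without single libraries.

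Genes called without single libraries numbered 836 to 1704 in endoderm (1478 with all, 836 without the second WT endoderm library), 1472 to 2467 in mesoderm (2222 with all, 1472 without the third WT mesoderm library), 741 to 1391 between lineages in WT (1145 with all, 741 without the third WT mesoderm library and 753 without the second WT endoderm library), 59 to 315 between lineages in arid4b∆ (216 with all, 59 without the third arid4b∆ mesoderm library, 120 without the second, and 83 and 133 without arid4b∆ endoderm libraries 2 and 3) and 104 to 354 for the interaction (163 with all, 354 without the first WT mesoderm library, 104 without arid4b∆ mesoderm library 2 and 105 without WT endoderm library 2). With no filter the interaction gave 377 genes and the lineage comparison in arid4b∆ 483, and with the replicate block 255 and 377. Without single libraries, the paralog shift ranged from -0.43 to -0.28 for Sin3a to Sin3b, 0.19 to 0.28 for Arid4a to Arid4b and 0.50 to 0.87 for Sap30 to Sap30l, whose adjusted exact permutation p fell to 0.03 without the first WT mesoderm library. Fewer libraries leave fewer arrangements to permute. The cause of these changes was not tested.

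Libraries with the same number in different groups deviated together weakly (r -0.06 to 0.19 over 18 pairs, median 0.08). For different numbers r was -0.18 to 0.11 (median -0.04), and 9 of 12 libraries correlated best with their own number. The labels do not say that the numbers pair libraries, and the main fit did not take them as pairs. Whether libraries of the same number shared a batch was not tested. The block changed no other count of subunits called. Depth limits Brms1, Ing2 and Sap30, with as few as 16, 14 and 19 counts in a library.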
